A study of Bos taurus with 39 samples.

Results

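The let-7 family was followed through bovine oocyte maturation by its 8 mature microRNAs (miRNAs) in the table of known miRNAs: bta-let-7a-5p, bta-let-7b, bta-let-7c, bta-let-7d, bta-let-7e, bta-let-7f, bta-let-7g and bta-let-7i. They were taken by name, whatever their values, and are 8 of 1030 known miRNAs and of 1995 miRNAs in all, of which 965 were predicted by the study. Small RNA was sequenced from pooled oocytes in 39 libraries, 3 in each of 13 conditions. Control oocytes matured inside the cumulus-oocyte complex (COC), from which the cumulus cells were taken off before RNA isolation, for 1, 6 or 22 h. The CBX group was handled like the control but with carbenoxolone, which closes gap junctions, in the medium. In the co-culture group, oocytes stripped of cumulus cells (denuded) shared medium with COCs without touching them, and in the denuded oocyte (DO) group they matured alone. A further 3 control libraries are labelled 0 h. The groups also differed in handling: denuded oocytes were freed with hyaluronidase before culture and treated with pronase after it to remove the zona, whereas control and CBX oocytes were freed with hyaluronidase after culture. Effects of handling and of culture cannot be told apart in comparisons between these kinds of oocyte. The labels give no strain, age or other treatment of the animals. The question put by the design is whether the miRNA content of the oocyte depends on contact with cumulus cells through gap junctions.

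Let-7 was among the earliest miRNAs described and is conserved across animals. Its members carry the same seed, the bases near the 5′ end that pair with target messenger RNAs, and differ by few bases elsewhere, so that they can repress overlapping targets such as RAS, MYC and HMGA2. LIN28, an RNA-binding protein of stem cells and germ cells, blocks the processing of let-7 precursors, and let-7 generally accumulates as cells differentiate. The mature sequences were not at hand and none is printed here. Members that differ by few bases can exchange reads through sequencing error or shared alignment, and the rule for reads that fit several members is not given in the sources used here, so the split between close members is uncertain. In the RefSeq gene table (names and neighbours only), 11 bovine let-7 genes lie on 7 chromosomes. Mature let-7a comes from 3 genes and let-7f from 2. Another miRNA gene lies within 100 kb of 10 of the 11, the exception being MIRLET7I. MIRLET7A-1, MIRLET7F-1 and MIRLET7D neighbour each other on chromosome 8, MIRLET7A-3 neighbours MIRLET7B on chromosome 5, and MIRLET7F-2 neighbours MIR98 on chromosome X. MIRLET7C lies beside MIR99A and MIR125B-2, MIRLET7E beside MIR99B and MIR125A, and MIRLET7A-2 beside MIR100 and MIR125B-1.

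Libraries held between 11985 and 175429 miRNA counts (median 70069). Levels are given as counts per 1000000 (CPM) after TMM scaling over all 39 libraries, and 3 counts, taken as the limit of detection, amount to between 17.1 and 250.3 CPM before that scaling, for counting error only. The shallowest library was control 0 h replicate 1, and CBX 22 h replicate 2 (18796 counts), control 6 h replicate 1 (20180 counts) and DO 1 h replicate 2 (32676 counts) were the next. A chi-square test set the counts of libraries of the same condition against each other, and its value per degree of freedom was 3.86 to 17.1 over the 39 pairs, so none was a repeat of another. Marker miRNAs of other cells were summed. A list of 6 for granulosa or cumulus cells gave 4095 to 12520 CPM with bta-miR-212 at 0 in every library, and a list of 4 for leukocytes gave at most 3091 CPM with bta-miR-142-3p at 0. The red blood cell list reached 494 CPM and the muscle list 12447 CPM, the latter in control 6 h replicate 2. No list of miRNAs defining oocytes was used, so the labelled cell type was checked only against these other cells. In such pooled samples, fewer cells and less RNA per cell cannot be told apart.

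Let-7 was an abundant family in the oocyte. Each of the 8 members was detected in all 39 libraries. Together they took between 9.92% and 26.3% of the counts on known miRNAs (median 13.5%), and between 3.99% and 13.8% of all counts (median 5.61%). The family rested on 672 to 9419 counts per library. The share of known counts was lowest in CBX 6 h replicate 1, at 9.92% (95% Wilson interval 9.68 to 10.16), and highest in control 0 h replicate 3, at 26.26% (25.73 to 26.79), both intervals covering counting error only. The sum of the 8 members was 61291 ± 20068 CPM (SD, n = 39). It lay between 40000 and 70000 CPM in 32 of the 39 libraries and above 80000 CPM in 5.

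**Figure D1:**
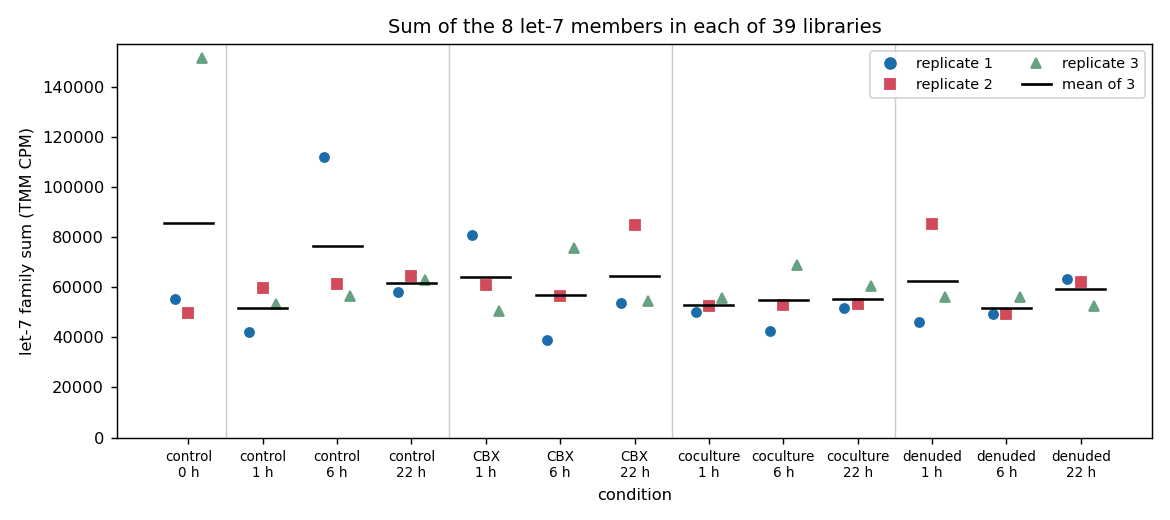
Sum of the 8 let-7 members (y axis, TMM CPM) in each of the 39 libraries, by condition (x axis), with 1 symbol for each replicate number and a black line at the mean of 3. Most libraries sit between 40000 and 70000 CPM, while control 0 h replicate 3 stands at 151374 CPM and control 6 h replicate 1 at 112018 CPM.

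At 0 h the family sum was 55296, 49589 and 151374 CPM in replicates 1, 2 and 3, which is the widest spread of any condition. In control oocytes it was 42000, 59730 and 53153 CPM at 1 h, then 112018, 61243 and 56504 CPM at 6 h, and 58037, 64453 and 62712 CPM at 22 h. The 22 h control libraries lay within the ranges seen at 0 h and 6 h, and a single library set the higher mean at 0 h and at 6 h. In the CBX group the sum was 80677, 60780 and 50410 CPM at 1 h, 39114, 56401 and 75684 CPM at 6 h, and 53817, 84759 and 54492 CPM at 22 h. The co-culture group gave 49921, 52669 and 55747 CPM at 1 h, 42475, 53067 and 68847 CPM at 6 h, and 51835, 53169 and 60490 CPM at 22 h. The DO group gave 46074, 85039 and 55980 CPM at 1 h, 49329, 49404 and 56210 CPM at 6 h, and 63234, 62192 and 52431 CPM at 22 h. Condition means ran from 51628 ± 8963 CPM in control at 1 h to 85420 ± 57190 CPM in control at 0 h (SD, n = 3 each), a ratio of 1.65. The groups overlapped in all 18 group comparisons of the sum but 1: the highest DO library at 6 h, with 56210 CPM, lay just below the lowest control library at 6 h, with 56504 CPM.

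The sum was higher in libraries with fewer counts. Over the 36 libraries at 1, 6 and 22 h, the log2 sum and the log2 total count were related with Pearson's r = -0.69 (p = 3e-05) and Spearman's rho = -0.52 (p = 0.0014, two-sided permutation tests with 100000 resamples, 1 relation computed). Without the 2 libraries farthest from the median depth, r was -0.49. Within replicate numbers 1, 2 and 3, r was -0.70, -0.78 and -0.38 (n = 12 each). Without the 3 libraries under 40000 counts, a choice made after the values were seen, r was -0.39 (n = 33) and the sum ran from 39114 to 80677 CPM. The part of depth in any difference between groups was not tested.

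**Figure D2:**
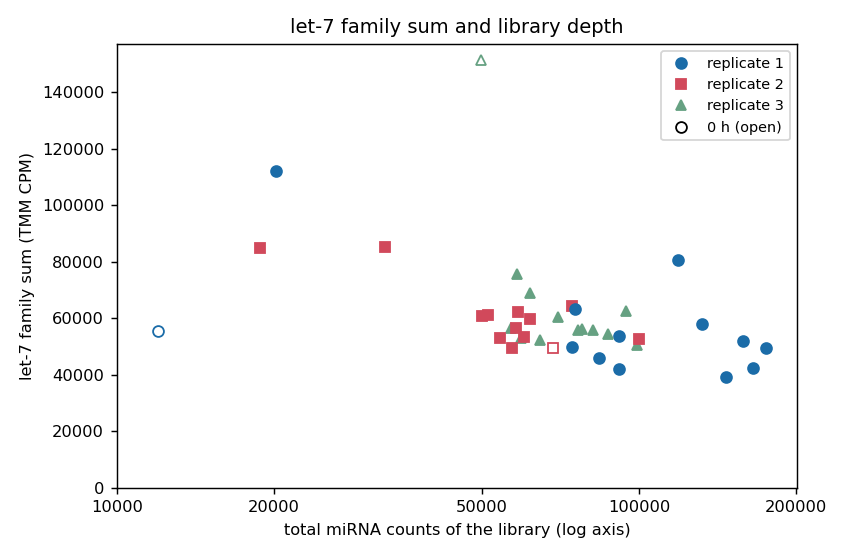
Let-7 family sum (y axis, TMM CPM) against the total miRNA counts of the library (x axis, log axis), 1 point per library, with the symbol giving the replicate number and open symbols the 0 h libraries. The 3 libraries at 1, 6 or 22 h with fewer than 40000 counts have sums of 84759, 112018 and 85039 CPM.

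Of the 8 members, 3 made up most of the family. Let-7a-5p was the most abundant at 24468 ± 7499 CPM, followed by let-7f at 15650 ± 5200 CPM and let-7i at 13021 ± 5463 CPM (SD, n = 39). These 3 held between 76.5% and 93.8% of the family's counts (median 88%). A second tier was formed by let-7c at 3065 ± 1581 CPM and let-7b at 2679 ± 1956 CPM. Let-7g (1070 ± 392 CPM), let-7e (957 ± 814 CPM) and let-7d (381 ± 222 CPM) were the least abundant. Among known miRNAs, let-7a-5p ranked 4th by total counts, let-7f 6th and let-7i 9th, while let-7d ranked 87th.

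Some neighbours in this order kept it in every library and others did not. Let-7a-5p exceeded let-7f in 39 of 39 libraries (mean log2 ratio 0.64 ± 0.18, SD), let-7i exceeded let-7c in 39 of 39 (2.16 ± 0.76), let-7b exceeded let-7g in 39 of 39 (1.14 ± 0.63) and let-7e exceeded let-7d in 39 of 39 (1.23 ± 0.50). Let-7f exceeded let-7i in 32 of 39 libraries (0.29 ± 0.29), let-7c exceeded let-7b in 26 of 39 (0.32 ± 0.78) and let-7g exceeded let-7e in 31 of 39 (0.33 ± 0.62). The mean ratio in those last 3 pairs was no larger than its spread, or smaller than it, so that their order in a single library varied, although the first of each pair was higher in most libraries. Mature miRNAs have nearly the same length, so levels of members can be set side by side, though ligation and reverse transcription can favour some sequences over others.

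**Figure D3:**
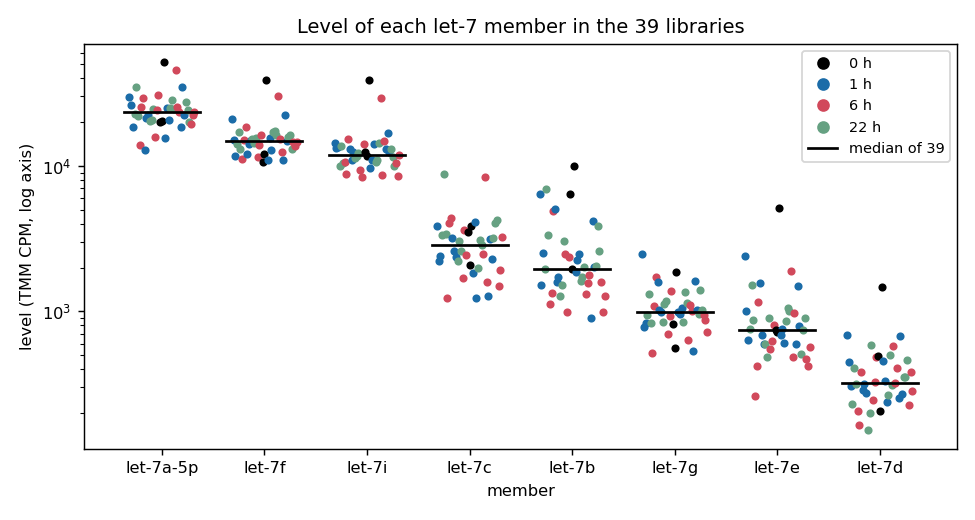
Level (y axis, TMM CPM, log axis) of each let-7 member (x axis, by falling mean) in the 39 libraries, coloured by maturation time, with a line at the median. Let-7a-5p, let-7f and let-7i form the top tier, let-7c and let-7b the middle and let-7g, let-7e and let-7d the lowest, and replicate 3 at 0 h is the highest point for 6 of the 8 members.

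The most abundant members, let-7a-5p, let-7f and let-7i, were steadier than the scarcer ones. On the log2 scale, the SD within conditions was 0.42 for let-7a-5p, 0.42 for let-7f and 0.43 for let-7i. It was 0.56 for let-7g, 0.66 for let-7d, 0.67 for let-7c, 0.77 for let-7e and 0.80 for let-7b. Among the scarcer members, spread did not follow abundance. Let-7b is the 5th member by mean but had the widest spread, although its lowest library still held 25 counts. Let-7g and let-7d are scarcer than let-7c but had no larger spread. From the lowest to the highest library, let-7f ranged 3.62-fold and let-7e 19.8-fold. The lowest let-7e library was CBX 6 h replicate 1 at 261 CPM and the highest control 0 h replicate 3 at 5168 CPM.

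Members moved together across libraries to different degrees. As a description over the 39 libraries, which share depth and TMM scaling, log2 levels of let-7a-5p and let-7f were the closest pair (r = 0.90, and 0.91 after each replicate number's mean was subtracted). Let-7i and let-7e (r = 0.77) and let-7e and let-7d (r = 0.77) came next over the 39 libraries. The members of each of these pairs are products of different chromosomes. Over the 36 libraries without 0 h, r was 0.64 and 0.69 for them. Let-7b and let-7g then stood above both, at 0.74. Let-7c went least with the others: its r was 0.03 with let-7i, 0.30 with let-7d, 0.45 with let-7a-5p and at most 0.52, with let-7g. Let-7a-3p was too scarce to compare, and miR-98 is given with the relatives of let-7.

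The effect of contact with cumulus cells was examined first, in the 6 comparisons between groups at each time point. No let-7 member was differentially expressed (DE), which is taken here as an adjusted p-value (p adj) under 0.05 and a change of at least 2-fold. Over all 18 comparisons, edgeR's quasi-likelihood test called 0 of 144 member tests, against 21 of 7883 tests over all miRNAs (0.266%), and DESeq2 also called 0. At an unadjusted p under 0.05, edgeR counted 11 of the 144 (7.64%), beside 5.24% over all miRNAs. Log2 fold changes (log2FC) of the members lay between -1.08 and 1.05 and the smallest p adj was 0.347. The 3 libraries of each group did not overlap in 9 of the 144 member tests (6.25%), beside 8.09% over all miRNAs. Comparisons at a time point share their libraries, so these counts are not independent.

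After 1 h of maturation, 1 of the 48 member tests had an unadjusted p under 0.05, beside 3.84% of tests over all miRNAs. Let-7e was 681 ± 76.7 CPM in the control and 1347 ± 929 CPM in the CBX group (SD, n = 3 each), a log2FC of 0.77 (SE 0.32, p adj = 0.997, edgeR). The CBX libraries were 2398, 1009 and 635 CPM, so the last lay inside the control range of 602 to 755 CPM. Without replicate 1, this log2FC was 0.25. In this comparison the log2FC of all 8 members was positive, with a median of 0.31 beside -0.03 over all miRNAs, but without replicate 1 it was positive for 4 of 8, and none of the 448 miRNAs tested was DE (0.0%). CBX 1 h replicate 1 was also the library with the most let-7g (2493 CPM) and, in the maturing oocytes, the most let-7d (685 CPM).

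After 6 h, 2 of the 48 member tests had an unadjusted p under 0.05, both for let-7b in the DO group (5.32% over all miRNAs). The DO libraries held 1591, 986 and 1286 CPM of let-7b, the co-culture libraries 2486, 988 and 2356 CPM and the CBX libraries 1125, 1342 and 4901 CPM. The DO libraries overlapped with both other groups and had the narrowest spread. The log2FC was -0.57 against co-culture (SE 0.22, p adj = 0.364) and -0.60 against CBX (SE 0.27, p adj = 0.420, edgeR). Without replicate 1, the change against CBX became -1.20 (SE 0.32) with p adj = 0.011, which passes the threshold and then rests on 2 libraries a group. Against the control at 6 h, the members' median log2FC was -0.45 in the CBX group, -0.45 in co-culture and -0.55 in the DO group, beside -0.03, -0.02 and 0.02 over all miRNAs. Those 3 comparisons share control 6 h replicate 1, the library with 20180 counts and 112018 CPM of let-7. Let-7i, for instance, stood at 29137 CPM in it and at 8642 and 14731 CPM in the other control libraries.

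After 22 h, 8 of the 48 member tests had an unadjusted p under 0.05 (6.6% over all miRNAs), 6 of them for let-7c or let-7b. Let-7c was 1990.2, 3094 and 2864 CPM in the control, 3330 (replicate 1), 8842 and 3416 CPM in the CBX group, 3173, 4051 and 4275 CPM in the DO group and 2220, 3052 and 2616 CPM in co-culture. All 3 CBX and all 3 DO libraries lay above all control and all co-culture libraries, although the lowest DO library exceeded the highest control library by little. The log2FC was 0.89 for CBX against control (SE 0.28, p adj = 0.417), 0.54 for DO against control (SE 0.17, p adj = 0.426), 0.52 for DO against co-culture (SE 0.15, p adj = 0.347) and -0.89 for co-culture against CBX (SE 0.28, p adj = 0.671, edgeR). Without replicate 2, which holds the CBX library with 18796 counts, CBX against control fell to 0.51. With library sizes from the deduplicated reads it was 0.23, and DO against control 0.20 and against co-culture 0.25. An exact permutation test of 3 against 3 libraries cannot go below p = 0.1, which these 4 comparisons reached. Of all miRNAs, 12%, 11%, 10.7% and 12.5% likewise showed no overlap in those comparisons, in the order given.

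Let-7b at 22 h was 1620 (replicate 1), 1725 and 2031 CPM in the control, 1963, 6962 and 3348 CPM in the CBX group, 2059, 3875 and 2598 CPM in the DO group and 1269, 1526 and 3069 CPM in co-culture. The CBX libraries overlapped with the control and the DO libraries did not. The log2FC against the control was 1.05 in the CBX group (SE 0.36, p adj = 0.422) and 0.61 in the DO group (SE 0.23, p adj = 0.627, edgeR). Without replicate 2, the change in the CBX group was 0.52 and that in the DO group 0.35. With library sizes from the deduplicated reads these were 0.40 and 0.27. The remaining tests were lower levels in co-culture than in the control: let-7a-5p at 21846 ± 2261 against 25959 ± 2060 CPM (log2FC -0.29, SE 0.14, p adj = 0.949) and let-7e at 662 ± 218 against 973 ± 106 CPM (log2FC -0.61, SE 0.28, p adj = 0.789). At 22 h the sum of the cumulus list was 10416 to 12520 CPM in the control. This lay above the 5386 to 6638 CPM in CBX, 6472 to 8990 CPM in co-culture and 6675 to 8437 CPM in the DO group. The list includes bta-miR-21-5p, whose median over the 39 libraries was 4249 CPM, beside 6472 CPM for the sum of the list. The study reported this miRNA as lower in the CBX group than in the control at the same time. The contrast of the sum with CBX is therefore not independent of that report. Levels of the listed miRNAs in each group are not given here, and a single abundant miRNA can set such a sum. How much of the difference came from cumulus cells was not tested. The part of the list in the let-7 values was not tested either.

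**Figure D4:**
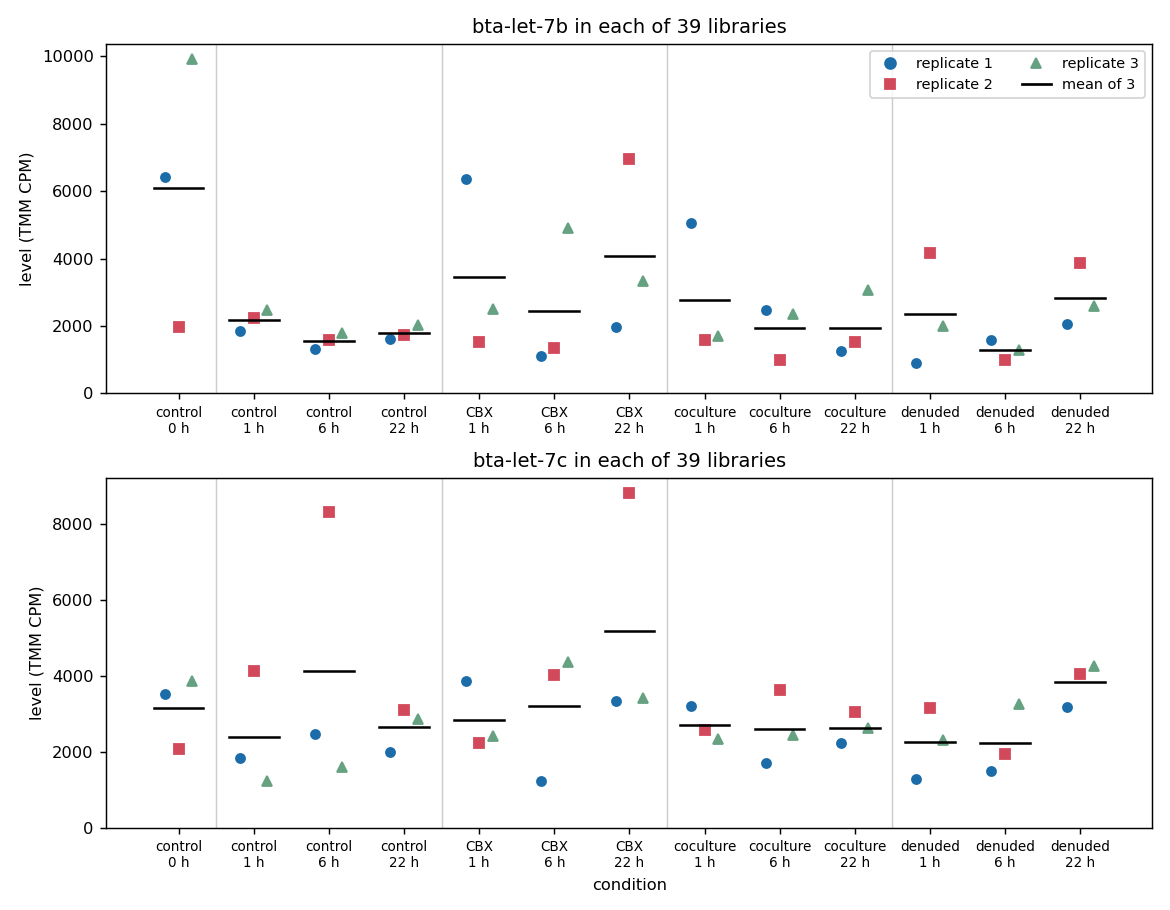
Levels (y axis, TMM CPM) of bta-let-7b (top) and bta-let-7c (bottom) in each of the 39 libraries, by condition (x axis), with 1 symbol for each replicate number and a black line at the mean of 3. At 22 h the CBX and DO libraries of let-7c sit above those of the control and co-culture, and CBX 22 h replicate 2 stands far above its replicates in both panels.

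Over the 3 times together, in a fit of 36 libraries, no member differed between groups past the threshold: edgeR called 0 of 48 member tests, beside 5 of 3600 over all miRNAs (0.139%), DESeq2 0, and 1 member test had an unadjusted p under 0.05 (2.08%, beside 5.61%). That was let-7b in the CBX group against the control, with a log2FC of 0.79 (SE 0.33, 95% CI 0.12 to 1.46, p adj = 0.553). It kept its sign in each of 12 other settings, between 0.66 and 0.83. At each time 1 CBX library was the highest: replicate 1 at 1 h (6364 CPM), replicate 3 at 6 h (4901 CPM) and replicate 2 at 22 h (6962 CPM). The remaining CBX libraries held 1125 to 3348 CPM, beside 1317 to 2472 CPM in the control at 1, 6 and 22 h. Leaving out 1 replicate number removes only 1 of these high libraries, so the kept sign says little about them. Over the 3 comparisons that set a group against the control, the log2FC of let-7a-5p, let-7f and let-7i lay between -0.28 and -0.09.

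Time in maturation was examined next. From 0 h to 1, 6 and 22 h in control oocytes, edgeR and DESeq2 each called 0 of 24 member tests and edgeR none of 1216 over all miRNAs (0.0%). At an unadjusted p under 0.05, edgeR counted 3 of the 24 (12.5%, beside 2.8% over all miRNAs), all for let-7b and all lower after 0 h, and the groups did not overlap in 1 (4.17%, beside 5.84%). Let-7b was 6418, 1966 and 9919 CPM in replicates 1, 2 and 3 at 0 h, 1860 to 2472 CPM at 1 h, 1317 to 1781 CPM at 6 h and 1620 to 2031 CPM at 22 h. Replicates 1 and 3 at 0 h stood above every later control library and replicate 2 among them. The log2FC from 0 h was -1.27 at 1 h (SE 0.44, p adj = 0.546), -1.63 at 6 h (SE 0.52, p adj = 0.982) and -1.50 at 22 h (SE 0.46, p adj = 0.764). The 0 h libraries are shared by these 3 comparisons, and replicate 1 rested on 78 let-7b counts in the shallowest library. Without replicate 2 the change at 1 h was -1.92 (SE 0.47, p adj = 0.045), past the threshold, and without replicate 3 it was -0.83.

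The other members at 0 h followed the single library that stood apart. In replicate 3 at 0 h, let-7a-5p was 51480 CPM against 20078 and 20248 CPM in replicates 1 and 2. Let-7f was 38692 CPM against 10697 and 12097 CPM there, and let-7i 38911 CPM against 12507 and 11715 CPM. Let-7e was 5168 CPM against 741 and 724 CPM. Let-7c was the exception, at 3876 CPM against 3538 and 2075 CPM. This library held 49916 counts, fewer than the median library. Its 8671 CPM of the cumulus list and 350.0 CPM of the leukocyte list were both inside the range of the other libraries. The cumulus value was the highest at 0 h, where the lowest was 4751 CPM. The part of other cells in its let-7 levels was not tested.

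Between 1, 6 and 22 h within each group, edgeR called 0 of 96 member tests over 12 comparisons, beside 11 of 5269 over all miRNAs (0.209%), and DESeq2 called 0. At an unadjusted p under 0.05, edgeR counted 10 of the 96 (10.4%, beside 7.53%). The groups did not overlap in 8 of the 96 (8.33%, beside 12.5%). The DO group gave 5 of the 10, the CBX group 3, the control 2 and co-culture 0, beside 10.9%, 7.02%, 5.89% and 6.35% of tests over all miRNAs.

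In the DO group, let-7b and let-7c had higher values at 22 h than at 6 h. Let-7b was 901, 4159 and 2007 CPM at 1 h, 1591, 986 and 1286 CPM at 6 h and 2059, 3875 and 2598 CPM at 22 h, so the 22 h libraries lay above all 6 h libraries but among those at 1 h. The log2FC from 6 to 22 h was 1.1 (SE 0.32, p adj = 0.280), and 0.72 without replicate 2. The highest let-7b, let-7c and let-7e values at 1 h were those of replicate 2, the library with 32676 counts. Let-7c was 1286, 3156 and 2302 CPM at 1 h, 1492, 1938 and 3261 CPM at 6 h and 3173, 4051 and 4275 CPM at 22 h. Its log2FC was 0.85 from 6 to 22 h (SE 0.20, p adj = 0.151, the smallest of all 360 member tests) and 0.79 from 1 to 22 h (SE 0.26, p adj = 0.258, edgeR). The change from 1 to 22 h was 1.09 without replicate 2 (SE 0.26, p adj = 0.000914), which passes the threshold. From 1 to 6 h, let-7e went from 963 ± 479 to 486 ± 76.3 CPM (log2FC -0.82, SE 0.32, p adj = 0.460, and -0.41 without replicate 2) and let-7i from 14189 ± 2390 to 10284 ± 1680 CPM (log2FC -0.45, SE 0.19, p adj = 0.460). Without replicate 1, let-7b from 1 to 6 h was -1.34 (SE 0.35, p adj = 0.0296), again past the threshold.

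In control oocytes, let-7a-5p was 20347 ± 4705 CPM at 1 h and 25959 ± 2060 CPM at 22 h (log2FC 0.36, SE 0.13, p adj = 0.441). Let-7f was 13096 ± 2227 and 16899 ± 603 CPM at these times (log2FC 0.37, SE 0.15, p adj = 0.441, edgeR). The libraries did not overlap for let-7f, nor for let-7e (602 to 755 CPM at 1 h, 854 to 1055 CPM at 22 h). The sum of the cumulus list was 5948 to 9033 CPM in the control at 1 h and 10416 to 12520 CPM at 22 h, also without overlap. A single abundant miRNA can set this sum too. The part of cumulus cells in it, and the part of the list in these let-7 values, were not tested. In the CBX group, let-7c (log2FC 0.83, SE 0.35, p adj = 0.809) and let-7e (1.03, SE 0.46, p adj = 0.809) had higher values at 22 h than at 6 h, and let-7d lower values at 6 h than at 1 h (-0.96, SE 0.42, p adj = 0.999). The CBX libraries at 6 h were spread widely, from 1232 to 4379 CPM for let-7c and from 261 to 1164 CPM for let-7e. The highest values at 22 h, 8842 CPM of let-7c and 1524 CPM of let-7e, came from the library with 18796 counts. Without replicate 3, let-7e from 1 to 6 h in the CBX group was -2.26 (SE 0.51, p adj = 0.00555), past the threshold.

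With the 4 groups joined in the fit of 36 libraries, no let-7 member passed the threshold between times. From 1 to 22 h, edgeR gave 66 of 600 miRNAs (11.0%) a p adj under 0.05 and called 10 of them (1.67%), with 0 of the 8 let-7 members at either step, and a count of 0 among 8 is near these shares. Over the 3 pairs of times, 0 of 24 member tests were called by edgeR and by DESeq2, beside 12 of 1800 over all miRNAs (0.667%), and 2 had an unadjusted p under 0.05 (8.33%, beside 17.1%). These were let-7b (log2FC -0.63, SE 0.29, p adj = 0.275) and let-7e (-0.55, SE 0.27, p adj = 0.313) from 1 to 6 h. From 1 to 22 h, the log2FC was 0.14 for let-7a-5p, 0.05 for let-7f and -0.17 for let-7i (SE 0.14, 0.13 and 0.14), and the largest was 0.40 for let-7c (SE 0.22, p adj = 0.249). In the 3 tests of whether the change from 1 to 22 h differed between the control and another group, edgeR and DESeq2 called 0 of 24 member tests and edgeR 0 of 1548 over all miRNAs (0.0%). Of the 24, 1 had an unadjusted p under 0.05 (4.17%, beside 3.88%): let-7e in the DO group (log2 difference -0.91, SE 0.41, p adj = 0.794). From 1 to 22 h, mean let-7e rose from 681 to 973 CPM in the control and fell from 963 to 717 CPM in the DO group. The DO libraries went from 593 to 508, from 1504 to 740 and from 791 to 904 CPM in replicates 1, 2 and 3. The fall of the DO mean thus came mainly from replicate 2, whose 1 h library held 32676 counts, and replicate 3 rose.

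How large a change these data leave possible differed by member. In the 9 comparisons over 36 libraries, the 95% CI lay inside 2-fold in either direction in 64 of 72 member tests. It did so in 9 of 9 for let-7a-5p, let-7c, let-7d, let-7f, let-7g and let-7i, in 6 of 9 for let-7e and in 4 of 9 for let-7b. The intervals together ran from -0.61 to 0.47 for let-7a-5p, from -0.49 to 0.37 for let-7f and from -0.57 to 0.38 for let-7i, and from -1.28 to 1.46 for let-7b. That fit assumes the same group effect at each time and the same time effect in each group, so these intervals bound an average change. At 22 h alone, the interval of let-7c for CBX against control ran from 0.21 to 1.57. In the 33 comparisons of 6 libraries, 133 of 264 intervals lay inside 2-fold, from 27 of 33 for let-7f to 5 of 33 for let-7b. For let-7b, let-7e (6 of 33), let-7d (8 of 33) and let-7c (13 of 33), most intervals of single conditions reached a 2-fold change in at least 1 direction.

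**Figure D5:**
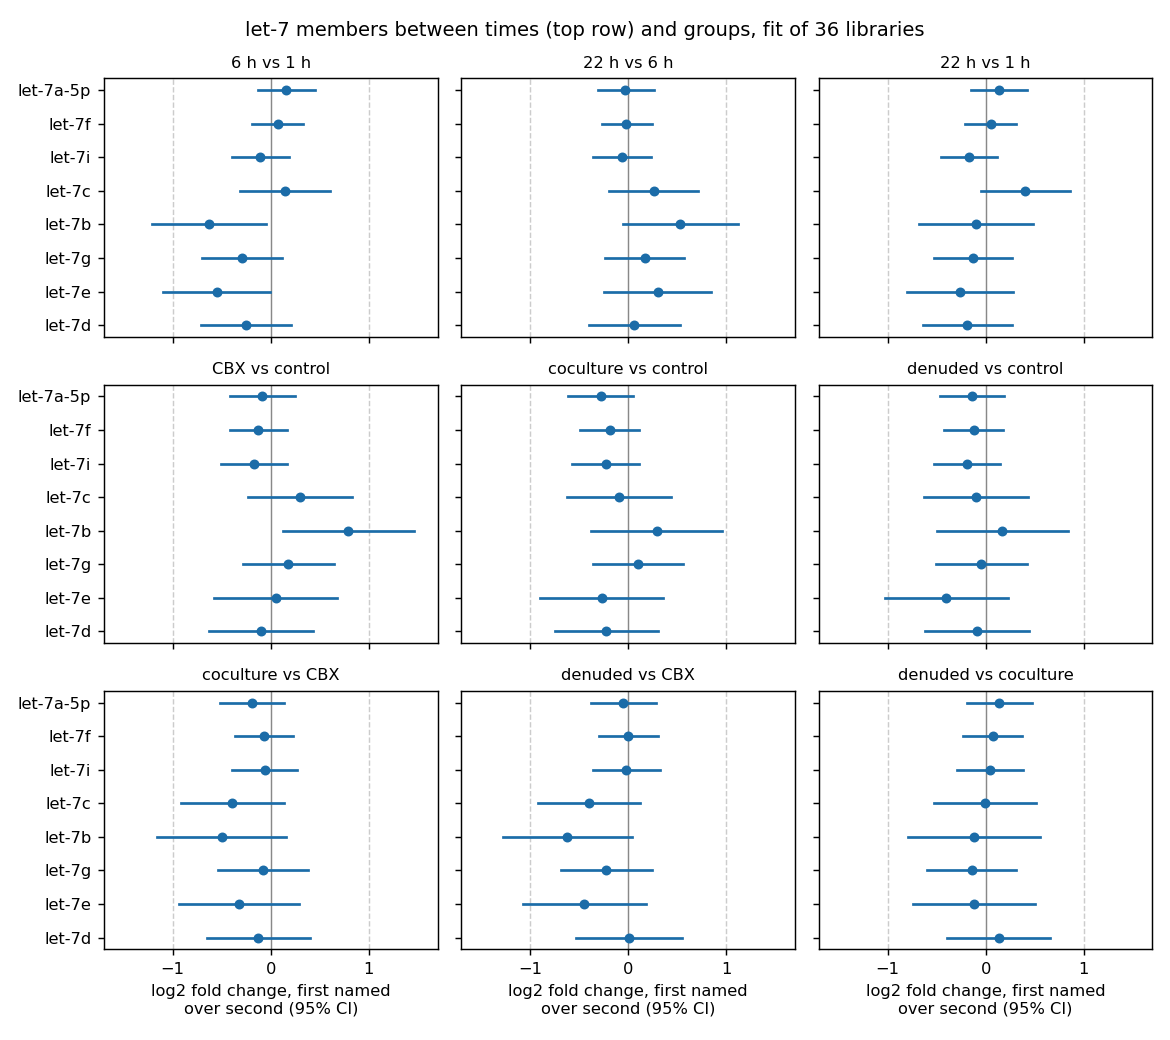
Log2 fold change with its 95% CI (x axis) of each let-7 member (y axis) in the fit of 36 libraries, between times over the 4 groups (top row) and between groups over the 3 times, with dashed lines at 2-fold. Intervals are narrow around 0 for let-7a-5p, let-7f and let-7i, and widest for let-7b, whose interval for CBX against control, 0.12 to 1.46, leaves out 0.

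Let-7c differed by replicate number, which stands here for the ovary pool that the study's methods enter as batch, although no source states that the numbers mark the pools. This contrast was examined after the values were seen. Let-7c was 4090 ± 2219 CPM in the 12 libraries numbered 2, 2318 ± 885 CPM in those numbered 1 and 2762 ± 949 CPM in those numbered 3, and number 2 exceeded number 1 in 10 of the 12 conditions. In the fit of 36 libraries, the log2FC of number 2 over number 1 was 0.78 (SE 0.23, p adj = 0.011, edgeR). Of all 600 miRNAs, 135 (22.5%) had a p adj under 0.05 in that contrast, so let-7c was 1 of many, and 0 of the other 7 members did. Let-7i took a smaller share of the family in libraries numbered 2 (median 17.8%) than in those numbered 1 (21.9%) or 3 (21.7%), and was lower in share than number 1 in 10 of 12 conditions, while its level had a log2FC of -0.20 (SE 0.15, p adj = 0.324).

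The relatives of let-7 ranged from scarce to abundant. MiR-98, which has the let-7 seed, had 296 counts over the 39 libraries, equal to 0.172% of the family's counts, and none in 1 library. It passed the low-count filter in 11 of the 45 comparisons. Let-7a-3p, the opposite arm of the let-7a precursor and the passenger arm in the table, had 18 counts in all, 0.0263% of the 68417 counts of let-7a-5p. Of the miRNAs whose genes neighbour let-7 genes, miR-125b had 11488 counts (median 3843 CPM), miR-125a 4661 (median 1334 CPM, from 618 to 4314 CPM over libraries), miR-99a-5p 637, miR-99b 464 and miR-100 95. Let-7a-3p and miR-100 passed the filter nowhere. None of the other 5 relatives was DE in any comparison in which it was tested (0.23% of tests over all miRNAs were called). Their smallest p adj was 0.0588, for miR-99b in DO against CBX at 1 h (log2FC -1.8, SE 0.54, edgeR). Its log2FC for the same groups at 22 h was 0.11. At an unadjusted p under 0.05, the counts were 5 of 45 tests for miR-125a, 4 of 28 for miR-99b, 2 of 44 for miR-99a-5p, 1 of 45 for miR-125b and 0 of 11 for miR-98, beside 6.63% over all miRNAs. The log2FC of miR-125a in DO at 6 h was -0.92 against control, -0.67 against CBX and -0.78 against co-culture. At 22 h it was 0.24, 0.05 and 0.16 in the same order.

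The known miRNAs whose level was most like the family sum were sought among 85 outside the family with at least 20 counts on average. As a description over the 39 libraries, with depth and scaling shared, bta-miR-423-5p had the highest Pearson's r at 0.77 (rho 0.64), followed by bta-miR-25 (0.69, rho 0.53), bta-miR-122 (0.63, rho 0.75), bta-miR-507b (0.57, rho 0.64) and bta-miR-191 (0.50, rho 0.59). Over the 36 libraries without 0 h, r was 0.70, 0.48, 0.62, 0.65 and 0.36 in the same order. MiR-125b and miR-125a, the only neighbours of let-7 genes among these candidates, were not in the first 5.

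Over all 45 comparisons of groups, times and interactions, edgeR called 0 of 360 let-7 member tests, beside 49 of 21316 over all miRNAs (0.23%), and 28 had an unadjusted p under 0.05 (7.78%, beside 6.63%). The 28 were spread unevenly: 10 were for let-7b, 7 for let-7c, 6 for let-7e, 2 for let-7a-5p, 1 each for let-7d, let-7f and let-7i, and 0 for let-7g. In the 33 comparisons of 6 libraries, the groups did not overlap in 18 of 264 member tests (6.82%), beside 9.51% over all miRNAs.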

How the data were processed

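Small RNA libraries (QIAseq miRNA kit, which tags molecules with unique molecular identifiers) were analysed from the deposited tables, which hold raw counts for each mature miRNA. The authors trimmed and deduplicated the reads with UMI-tools (1.1.2 per the labels), aligned them to ARS-UCD1.2 and counted known (miRBase) and predicted (miRPro) miRNAs, without normalization. Both tables were stacked (1995 miRNAs), with groups and replicate numbers taken from the labels. Identifiers of molecules remove most PCR duplicates, but ligation bias between sequences stays in the counts.

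Comparisons used edgeR 4.0.16 in R 4.3.3 (limma 3.58.1): quasi-likelihood F-test in its edgeR 3 form, TMM, filterByExpr (minimum count 10, minimum total 15), the replicate number as a block for the ovary pool, and Benjamini-Hochberg adjustment over all miRNAs tested. The log2 fold change is the later time, or the group named before "against", over the other. Its SE is its size over the square root of F. A call needed an adjusted p under 0.05 and at least 2-fold. Each comparison of conditions fitted its own 6 libraries, and joined comparisons and interactions fitted the libraries they name. The labels do not say that same-numbered libraries come from the same ovaries; their deviations correlated with a mean r from -0.05 to 0.46 over 33 comparisons (median 0.19). The block follows the study's methods. The study's methods describe 6 repeats of the experiment, pooled in pairs into 3 replicates. They do not say which animals each repeat came from. The p-values measure only the spread between these pooled replicates. Levels were TMM CPM over all 39 libraries, with log2(CPM + 1) in correlations; depth was 11985 to 175429 counts. Python 3.11.15, scipy 1.17.1 and DESeq2 1.42.0 were also used. The procedures were tested on simulated data with log2 changes of 2 in either direction. These were larger than any member change in the fits as reported, so that test does not show how often smaller changes would be found.

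Named miRNAs were the 8 members, 7 fixed relatives and the 5 miRNAs most like the family sum. The members, lists and tests were chosen with earlier results of these data known. Alternatives were no replicate block, other scalings, DESeq2, other filters, known miRNAs only, the robust option, no fold-change threshold, one fit of 39 libraries and leaving out each replicate; the fit in edgeR's current form was added after the values were seen.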

Additional observations from a re-analysis of the deposited data

How the results depend on the processing

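No let-7 member was called in the comparisons as reported, so there was no called fold change to follow. The count of 0 called members was also found in each of the 11 sets of comparisons with DESeq2 size factors, library totals alone, library sizes from deduplicated reads, DESeq2's test, known miRNAs only, the robust option, no fold-change threshold and edgeR's current form, and in the 9 sets to which one fit over 39 libraries applied. Without the replicate block the count was likewise 0 in all 11 sets, and 20 of 360 member tests had an unadjusted p under 0.05 instead of 28. The replicate numbers share only a number in the labels, and the pairing of same-numbered libraries was weak (median r 0.19, lowest single r -0.20). Without a low-count filter, 1 member was called between times in the DO group: let-7b from 6 to 22 h (log2FC 1.09, SE 0.27, p adj = 0.0252). Over the alternatives p adj of this change ran from 0.0252 to 0.872. Some changes in the DO group under 2-fold, so not called, also had a p adj under 0.05 (edgeR). Let-7c did from 1 to 22 h with known miRNAs only (log2FC 0.78, p adj = 0.042). It also did from 6 to 22 h without the filter (0.84, p adj = 0.0495). Let-7b did from 1 to 22 h without replicate 2 (0.76, p adj = 0.0422). The setting with no fold-change threshold was applied to the fit as reported only. Leaving out each replicate in turn gave 0 to 1 called members in the 6 h group comparisons, from 0 h in the control, between times in the CBX group and between times in the DO group, and 0 in the other 7 sets. Those calls are let-7b in DO against CBX at 6 h and in DO from 1 to 6 h without replicate 1, let-7b from 0 to 1 h and let-7c in DO from 1 to 22 h without replicate 2, and let-7e in CBX from 1 to 6 h without replicate 3. Each rests on 2 libraries a group, and the cause was not tested. With library sizes from deduplicated reads, the median log2FC over all miRNAs reached 0.856 in size in a comparison, beside 0.0595 as reported. Of the changes named in the report, 13, mostly of let-7b and let-7c, were picked with the values known and followed. Of these, 0 changed sign under any alternative. Most alternatives refit the same counts, so a kept sign carries little weight, and the other named changes were not followed in this way. In CBX against control at 1 h, 8 members were positive as reported and 4 without replicate 1. Several of the 13 shrank. With deduplicated reads, let-7c in CBX against control at 22 h went from 0.89 to 0.23 and let-7b from 1.05 to 0.40. Let-7c in DO against control went from 0.54 to 0.20 and let-7b from 0.61 to 0.27. The number of unadjusted p under 0.05 ran from 15 (deduplicated reads) to 39 (without replicate 3) of 360.

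The median family sum was 55980 CPM. It was 137585 per 1000000 counts on known miRNAs and 512.0 per 1000000 deduplicated reads, because the denominators differ. Leaving out each replicate gave 54556.3 to 56452.7 CPM. Counts of let-7d were 6 to 80 per library.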
